A study of Mus musculus with 3 samples.

Results

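The fibroblast growth factor (FGF) genes of the mouse heart ventricle, their receptors and their Sprouty and Spred inhibitors are described here at 3 stages. Members were taken by name from the deposited transcript annotation: the numbered Fgf genes, Fgfr1 to Fgfr4, Fgfrl1, and the Spry and Spred genes. This gave 33 genes with 1 locus each, out of 48626 loci in the table and 20117 loci with a RefSeq protein-coding transcript (mRNA loci). Spry3 had no locus under that name and was not analysed here. Heart ventricle of C57BL/6 mice was sampled on 2 days of embryonic development, E10.5 and E13.5, and from adults of 8 weeks, with 1 library of stranded total RNA for each stage. No treatment or genetic change is labelled in any library. The sex and number of animals behind each library are not stated in the sources used here. In the study's list of lncRNAs, Xist, the RNA of X inactivation, was far higher at E10.5 than at E13.5 or in the adult. The libraries may therefore differ in sex as well as in stage, and the 2 cannot be told apart here. With a single library per stage there is no replicate to set a difference against, so p-values are left out.

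FGFs are signalling proteins that bind receptor tyrosine kinases on the cell surface together with heparan sulfate, and the activated receptor signals through the Ras and ERK kinases. Most FGFs are secreted and act on nearby cells, a few circulate as hormones, and one branch of the family, the FGF homologous factors, stays inside the cell, where it binds voltage-gated sodium channels. In the embryonic heart, FGF9 from the epicardium and endocardium is known to act on myocardial FGFR1 and FGFR2. Sprouty and Spred proteins are inhibitors of the pathway, and several of them are themselves induced by it.

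The promoter of Fgfrl1 is shown because the start of Fgfrl1, a receptor without a kinase domain, lay close to the start of another transcript on the opposite strand. The RefSeq promoter window of Fgfrl1 is chr5:108693979-108694278 on the plus strand of GRCm38.p6. The capitals mark the 205 bases from the start of the minus-strand transcript to the start of Fgfrl1.
Fgfrl1 promoter: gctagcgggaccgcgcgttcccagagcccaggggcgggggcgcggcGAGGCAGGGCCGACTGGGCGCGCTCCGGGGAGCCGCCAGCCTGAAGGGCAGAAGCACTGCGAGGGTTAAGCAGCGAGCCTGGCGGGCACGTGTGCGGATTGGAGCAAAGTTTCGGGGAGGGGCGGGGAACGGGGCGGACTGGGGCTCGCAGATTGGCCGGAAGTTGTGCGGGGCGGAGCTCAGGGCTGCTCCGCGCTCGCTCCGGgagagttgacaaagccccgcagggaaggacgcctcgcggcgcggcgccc
This window holds 37 CpG dinucleotides, of which 22 lie in the capitals, whereas the median of all 32851 promoters of the RefSeq table is 7. The ETS-type motif CCGGAAGT starts at base 203, and it was found on either strand in 3.89% of all promoters. Motifs and CpG counts are descriptions of the letters in these windows. RefSeq promoters matched 25 of the 33 members, with 32 windows in all and a median of 19 CpG. Fgf1, Fgf8, Fgf15, Fgf16, Fgf17, Fgf20, Fgfr1 and Spry4 had no entry. The TATA-type motif TATAAA, on either strand, stood in 3 member windows, those of Fgf5, Fgf21 and 1 of Fgf13, against 13.6% of all promoters. The cyclic AMP response element TGACGTCA stood in 0 of the 32 member windows, against 1.79% of all promoters.

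Levels are given in FPKM, a fragment number corrected for exon length and for the size of the library, which allow genes to be compared within a library. Where 3 values follow each other, they stand in the order E10.5, E13.5 and adult. Taking the limit of 1 FPKM that the study also used, 17 of the 33 members reached it in at least 1 library. Of the other 16, Fgf3 and Fgf22 were listed at 0 in all libraries. The highest values among the remaining ones were 0.879 for Fgf7, 0.805 for Fgf12 and 0.638 for Spred3. Fgf4, Fgf5, Fgf6, Fgf8, Fgf14, Fgf15, Fgf17, Fgf20, Fgf21, Fgf23 and Fgfr4 also stayed under the limit. Read counts were not used here, but the smallest steps of the values put 1 FPKM over 1 kb at about 13.8, 26.7 and 13.8 fragments. Ratios below carry a 95% exact binomial interval from these approximate fragment numbers. It covers counting error only, and not the variation between animals.

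**Figure D1:**
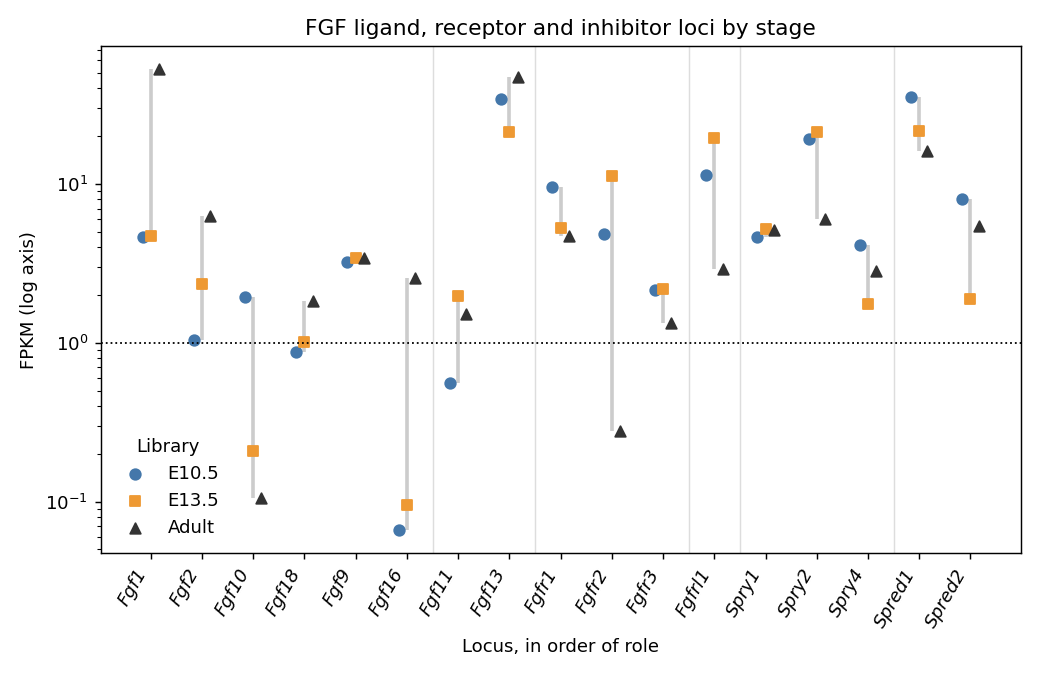
FPKM on a log axis for the 17 members that reached 1 FPKM (dotted line), ordered as secreted ligands, intracellular FGFs, kinase receptors, Fgfrl1, Sprouty and Spred genes, with 1 point per library and a grey bar over the range. Fgf1 stands at 53.0 FPKM in the adult against 4.67 and 4.74 in the embryonic libraries, and Fgfr2 at 0.279 in the adult against 4.83 and 11.2.

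The secreted ligands were low at the embryonic stages and Fgf1 led them in every library. Fgf1, an FGF without a signal peptide that binds all the FGF receptors, measured 4.67, 4.74 and 53.0 FPKM (chr18:38838673-38929627, minus strand). The 2 embryonic values were close and the adult value stood 11.4-fold above E10.5 (interval 9.97 to 13.0). An unspliced transcript lying wholly within Fgf1 on the same strand, antisense to Gm5820 and counted apart from Fgf1, measured 0.296, 0.261 and 7.22 FPKM in the same order. Fgf2, the other member of the FGF1 subfamily, measured 1.04, 2.35 and 6.27 FPKM, so its adult value was the highest and lay 6.02-fold above E10.5 (interval 3.05 to 13.1). The interval of Fgf2 is wide because its shortest transcript, which set the fragment number, is 695 nt.

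The FGF9 subfamily behaved unevenly. Fgf9, the ligand known from the epicardium and endocardium, measured 3.25, 3.43 and 3.43 FPKM, and its 3 values lay within 1.06-fold of each other as deposited. Rescaled by the median ratio of the mRNA loci to their mean over libraries (median-of-ratios factors), they came to 3.04, 2.87 and 4.27 FPKM. Fgf16, an X-linked gene of the same subfamily, measured 0.0660, 0.0953 and 2.58 FPKM. Its embryonic values rest on about 3 and 8 fragments, and the adult value was 27.0-fold that at E13.5 (interval 12.8 to 62.0). Fgf20, the remaining gene of this subfamily, was at most 0.0581 FPKM. Against Fgf9, Fgf1 stood at 1.44, 1.38 and 15.4 times, a ratio within each library that does not depend on the scaling between libraries.

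Fgf10, a ligand of FGFR2 known from the second heart field and later from the epicardium, was the one secreted ligand highest at E10.5 among those at 1 FPKM or more. It measured 1.93, 0.208 and 0.105 FPKM. The E13.5 value was 0.108 times that at E10.5 (interval 0.0660 to 0.164). Of 4 second heart field markers, 0 reached 1 FPKM at E10.5, where their levels summed to 0.980 FPKM, and Isl1, which defines that population, was at 0.291. At E13.5, where Fgf10 was lower, these markers summed to 4.77 FPKM and Isl1 was at 3.76. Fgf18, a ligand of the FGF8 subfamily, measured 0.873, 1.01 and 1.84 FPKM. Its adult value was highest. Its change from E13.5, 0.50 on the log2(FPKM + 1) scale used below, came to 1.42 when set against mRNA loci of similar length. Fgf8, the leading cardiac ligand of that subfamily in the early embryo, measured 0.0879 FPKM at E10.5 and 0.0452 at E13.5 and was listed at 0 in the adult. The endocrine members Fgf15, Fgf21 and Fgf23 were at most 0.131 FPKM in any library.

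Taken as shares, the 18 secreted ligands summed to 13.0 FPKM at E13.5 and to 67.8 FPKM in the adult. Fgf1 made up 34.5%, 36.4% and 78.1% of the sum. Fgf9 made up 24.1% at E10.5 and 26.4% at E13.5, and 5.06% in the adult, where its own level was close to the embryonic ones. Fgf10 held 14.3% at E10.5 and 1.60% at E13.5.

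The intracellular FGFs were dominated by Fgf13, which binds cardiac sodium channels and microtubules. Its locus (named transcripts at chrX:59061848-59525197, minus strand) measured 34.2, 21.2 and 47.1 FPKM, so E13.5 was lowest. It held 95.2%, 89.0% and 95.7% of the summed level of the 4 intracellular members. Fgf11 measured 0.555, 1.96 and 1.53 FPKM, with both later libraries above E10.5, though on about 5, 36 and 14 fragments. These numbers use its shortest matched transcript, 678 nt, where the longest is 2810 nt, and so may be too low. Fgf14 lay between 0.358 and 0.545 FPKM, and Fgf12 measured 0.805, 0.147 and 0.0358 FPKM.

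The value of Fgf13 cannot be read as its mRNA alone. Its locus joins 4 transcripts named for the gene with 8 unnamed ones, among them single-exon stretches of 9901 to 34492 nt. In addition, 64 separate unspliced and unannotated loci lie within the Fgf13 introns, and no other member has any. Their median was 4.38, 0.311 and 5.01 FPKM, and 63 of the 64 were lowest at E13.5. The 2845 such loci inside mRNA loci in general had medians of 0.724, 0.141 and 1.23 FPKM, and 75.5% of them were lowest at E13.5. The low E13.5 value of Fgf13 thus came with low intronic RNA across that library, whose part in the value was not tested.

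**Figure D2:**
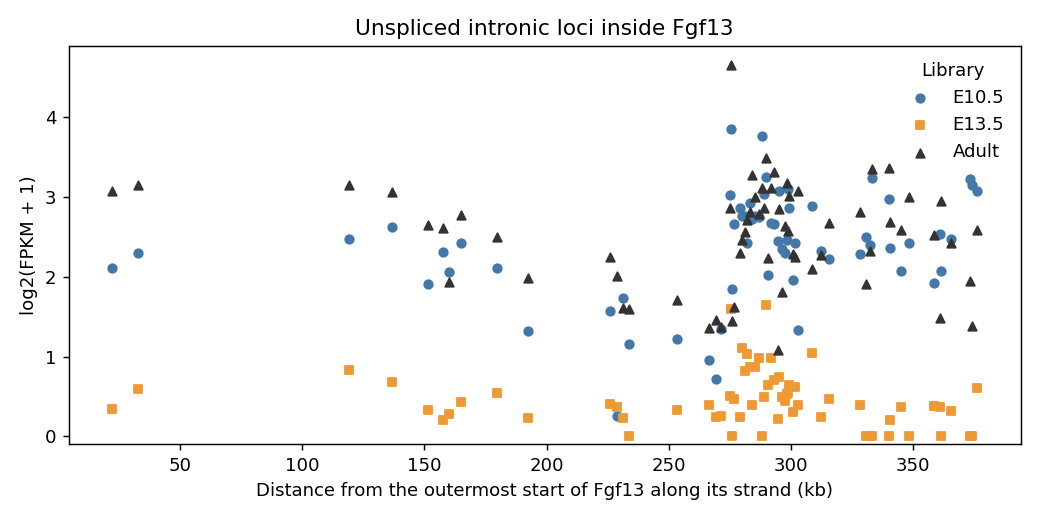
log2(FPKM + 1) of the 64 unspliced intronic loci against their distance in kb along the strand, with 1 point per library. Distance runs from 59525197, the outermost start of the transcripts named Fgf13. Unnamed transcripts of the locus start as far out as 59586067. The E13.5 points lie below the other libraries at 63 of 64 loci, over the whole stretch plotted.

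Among the 4 receptor kinases, the leading receptor differed between libraries. Fgfr1, the main receptor of mesenchymal and cardiac muscle cells (chr8:25514189-25575715), measured 9.53, 5.29 and 4.72 FPKM. Its value was highest at E10.5 and the adult value was 0.495 times that (interval 0.430 to 0.568). Fgfr2 (chr7:130162352-130266808) measured 4.83, 11.2 and 0.279 FPKM. It was highest at E13.5 and lowest in the adult, where the value rests on about 19 fragments and was 0.0577 times that at E10.5 (interval 0.0350 to 0.0934). Fgfr3 measured 2.16, 2.17 and 1.33 FPKM, with close embryonic values and a lower adult one. Fgfr4, a receptor best known from liver, was at most 0.0661 FPKM in any library.

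Within a library, Fgfr1 made up 57.6%, 28.2% and 74.2% of the summed level of the receptor kinases. Fgfr2 made up 29.2%, 59.9% and 4.38%. Fgfr2 therefore stood at 0.507, 2.13 and 0.0591 times Fgfr1. The sum itself was 16.5, 18.8 and 6.36 FPKM, while that of the secreted ligands was highest in the adult.

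**Figure D3:**
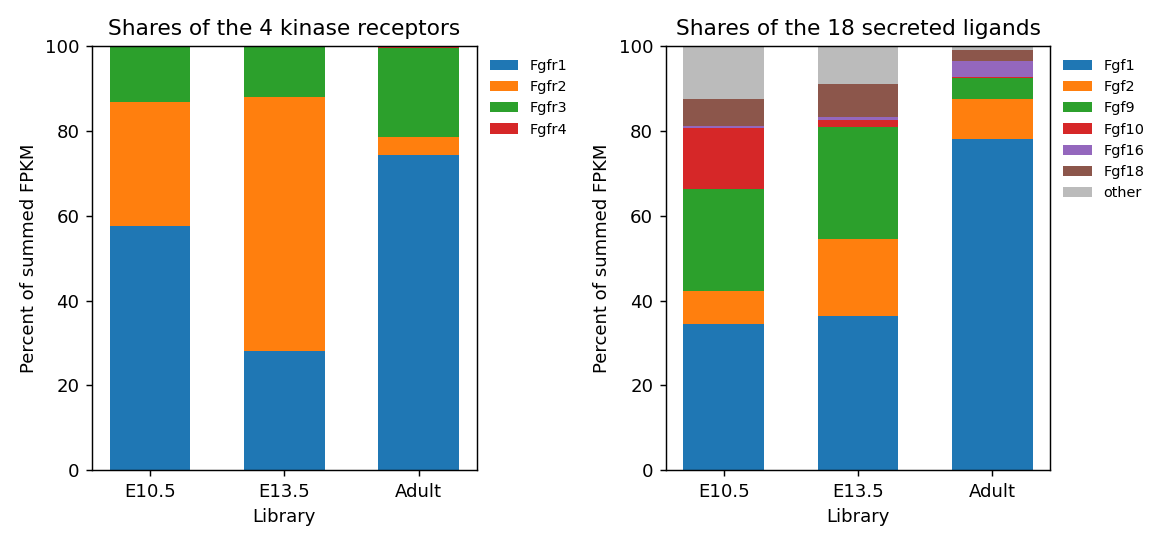
Stacked bars give each gene's percent of the summed FPKM of the 4 receptor kinases (left) and the 18 secreted ligands (right) in each library. Fgfr2 holds 59.9% of the receptor kinases at E13.5 and 4.38% in the adult, and Fgf1 holds 78.1% of the ligands in the adult.

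Fgfrl1, which binds FGFs and heparan sulfate but has no kinase domain, measured 11.4, 19.4 and 2.90 FPKM (chr5:108694229-108706950). It was highest at E13.5, as Fgfr2 was, and its adult value was 0.150 times that at E13.5 (interval 0.120 to 0.184). Set against Fgfr1 in the same library, it stood at 1.20, 3.66 and 0.614 times. The shortest matched transcript is 2383 nt for Fgfrl1 and 4741 nt for Fgfr1, and differences involving E13.5 depended on length, as given below. The part of length in this ratio was not tested.

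The Sprouty genes encode feedback inhibitors of receptor tyrosine kinase signalling. Spry2 led them with 19.2, 21.3 and 5.99 FPKM. Its embryonic values were close together and its adult value was 0.311 times that at E10.5 (interval 0.262 to 0.371). Spry1 measured 4.64, 5.17 and 5.11 FPKM, which differ by at most 1.11-fold as deposited and came to 4.34, 4.33 and 6.36 FPKM with median-of-ratios factors. Spry4 measured 4.10, 1.76 and 2.83 FPKM and was lowest at E13.5. Spry2 held 68.7%, 75.4% and 43.0% of the summed level of the 3 genes.

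The Spred genes encode membrane proteins that hold back Ras and Raf activation. Spred1 measured 35.3, 21.6 and 16.1 FPKM, the highest of any member at E10.5 and E13.5, though close to those of Fgf13. Its locus also contains the microRNA gene Mir674. Spred2 measured 8.06, 1.89 and 5.43 FPKM and was lowest at E13.5, at 0.235 times the E10.5 value (interval 0.192 to 0.287). Spred1 held 80.3%, 89.5% and 73.4% of the summed level of the 3 Spred genes.

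Changes between libraries were counted where log2(FPKM + 1) differed by 1 or more, a scale that understates the changes of low loci. From E10.5 to E13.5, 1 of the 17 expressed members was higher, Fgfr2 by 1.07, where 5.89% of the 12569 expressed mRNA loci were higher. Fgf10 (-1.28) and Spred2 (-1.65) were lower, where 4.85% of all mRNA loci were. Past 2 on this scale 0 members were higher and 0 lower, beside 0.851% and 0.247% of all loci. The members' median difference was 0.04 and that of all expressed mRNA loci was 0.17. The call of Fgfr2 was lost when the libraries were rescaled, with differences of 0.92 under median-of-ratios factors and 0.86 under the summed mRNA level.

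From E13.5 to the adult, 5 of the 17 members were higher, against 13.0% of all expressed mRNA loci. They were Fgf1 (3.23), Fgf16 (1.71), Spred2 (1.15), Fgf2 (1.12) and Fgf13 (1.12), whose intronic loci were low at E13.5. Fgfr2 (-3.26), Fgfrl1 (-2.39) and Spry2 (-1.67) were lower, and 32.1% of all expressed mRNA loci were lower. Of these 8 differences, those of Fgf1, Fgfr2 and Fgfrl1 were past 2 on this scale, past which 4.41% of all loci were higher and 9.88% lower. The median difference was -0.01 over the members and -0.50 over all expressed mRNA loci. With median-of-ratios factors the members' counts stayed at 5 higher and 3 lower with a median of 0.44, while those factors put 20.8% of all loci higher and 18.9% lower, with a median of -0.03.

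From E10.5 to the adult, Fgf1 (3.25), Fgf2 (1.83) and Fgf16 (1.75) were higher, which is 3 of 17 members against 14.8% of all expressed mRNA loci. The 5 lower members were Fgfr2 (-2.19), Fgfrl1 (-1.67), Spry2 (-1.53), Fgf10 (-1.41) and Spred1 (-1.08), against 27.3% of all loci. Spred1 came to -0.69 under median-of-ratios factors and so lost its call. Past 2, 1 member was higher (Fgf1) and 1 lower (Fgfr2), beside 5.59% and 8.10% of all loci. The median difference was -0.41 over the members and -0.40 over all loci. In this comparison the members' shares of 17.6% higher and 29.4% lower were near the background. With median-of-ratios factors 3 members were higher and 4 lower, beside 20.0% and 18.4% of all loci. The 3 comparisons share libraries with each other.

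**Figure D4:**
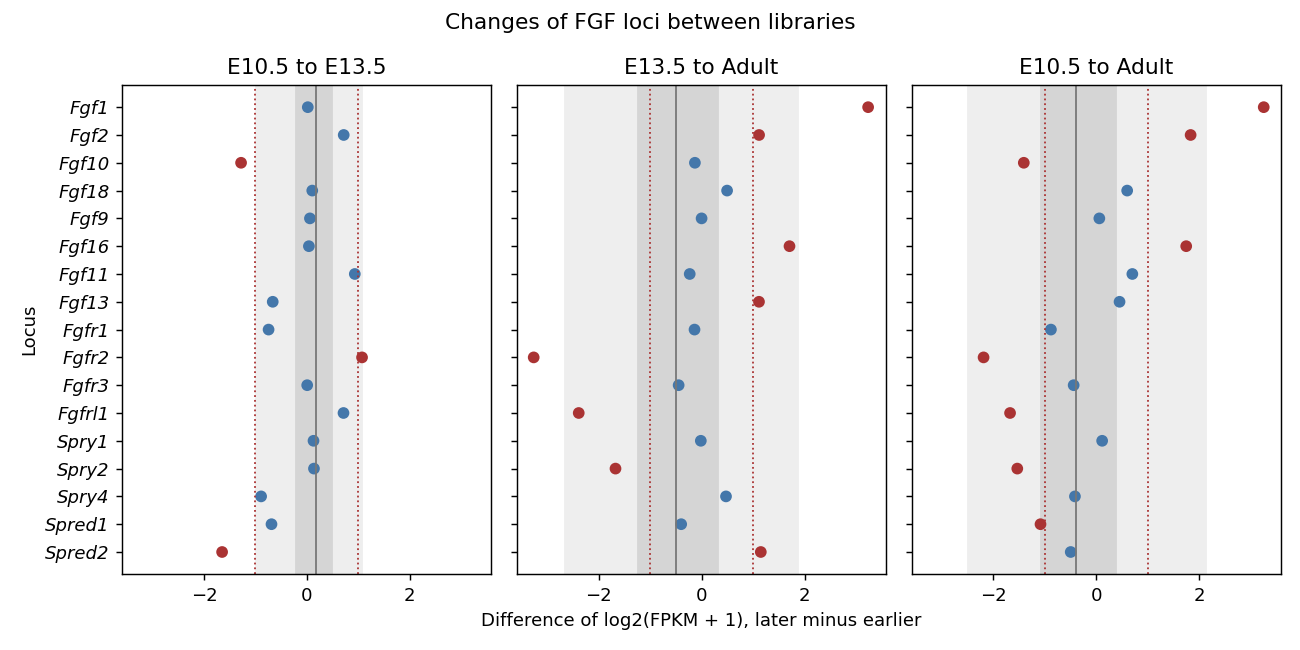
Differences of log2(FPKM + 1), later minus earlier stage, for the 17 expressed members in the 3 comparisons. The dark band runs from the 25th to the 75th and the light band from the 5th to the 95th percentile of the 12569 expressed mRNA loci, the grey line is their median, dotted lines mark 1 and -1, and red points are past them: Fgf1 lies beyond the light band to the right and Fgfr2 beyond it to the left from E13.5 to the adult.

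Differences that involve the E13.5 library depended on transcript length over all genes. The median difference from E10.5 to E13.5 went from 0.49 in the shortest of 5 equal length groups of expressed mRNA loci to -0.27 in the longest. From E13.5 to the adult it went from -0.86 in the shortest group to -0.09 in the longest. Between E10.5 and the adult it lay between -0.42 and -0.38 in all 5 of these groups. With each member set against mRNA loci of similar length, a comparison chosen after seeing the data, 18 of the 19 calls counted over the 3 comparisons stayed past 1. Spred1 from E10.5 to the adult, at -0.68, did not. It put 2 further differences past 1: Fgf18 came to 1.42 from E13.5 to the adult, and Fgf11 to 1.05 from E10.5.

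Neighbours on the opposite strand were examined because the study asked how non-coding transcripts lie next to developmental genes. The transcript divergent to Fgfrl1 (chr5:108683912-108694025, minus strand, 3 exons) starts 204 bp away and runs antisense to Idua, a gene for a lysosomal enzyme. It measured 1.44, 4.82 and 0.175 FPKM, with the same order of stages as Fgfrl1. Spry4 has a divergent spliced transcript of 5 exons without a gene name in the deposited annotation, listed by the study as a bidirectional lncRNA (chr18:38601619-38837556, plus strand). It starts 351 bp away and spans the gap to Fgf1. It measured 2.12, 2.70 and 0.434 FPKM and was lowest in the adult, where Spry4 (2.83) was above its own E13.5 value (1.76). G630025P09Rik, Fut1 and Ggn, divergent to Fgf11, Fgf21 and Spred3, were at most 0.214, 0.0552 and 0.441 FPKM in any library. Fgf2 overlaps the exons of Nudt6, a gene also known as the Fgf2 antisense gene, over 511 bp. Nudt6 measured 2.24, 3.76 and 9.56 FPKM, in the order of stages of Fgf2. How often neighbouring pairs share such an order over all genes was not computed. The kit marks strand, but how the deposited values handled strand in overlapping genes is not given in the sources used here, so the levels of Fgf2 and Nudt6 are uncertain.

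**Figure D5:**
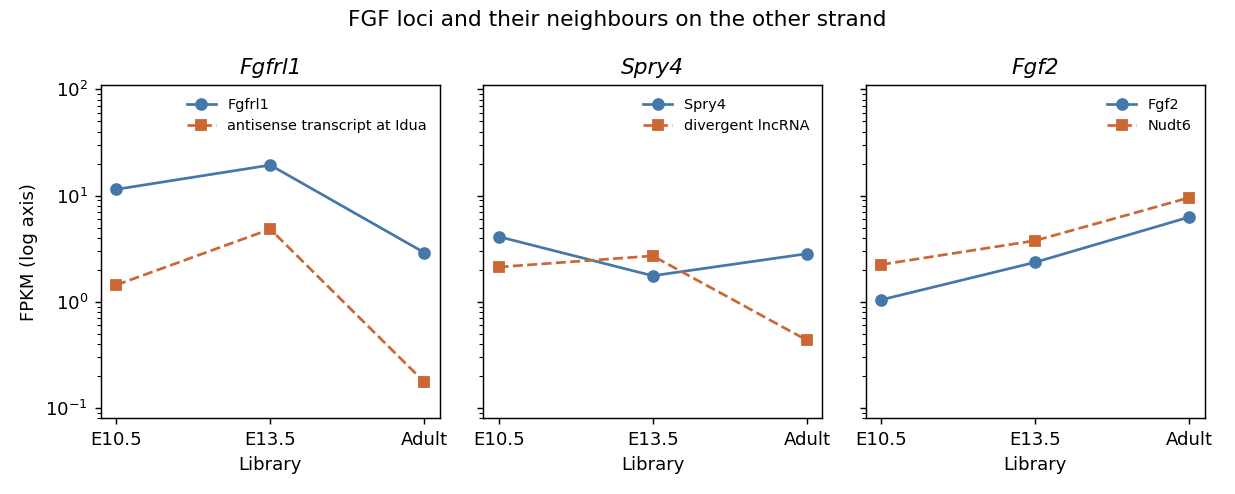
FPKM on a log axis of 3 members (circles) and their neighbours on the other strand (squares) in the 3 libraries. Fgfrl1 and its divergent transcript are both highest at E13.5, and Fgf2 and Nudt6 are both highest in the adult, while Spry4 and its divergent transcript take different orders.

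Several members are neighbours of each other. Spry4 and Fgf1 lie 237 kb apart with 0 mRNA loci between them, and their levels went different ways, with Spry4 highest at E10.5 and Fgf1 in the adult. Fgf2 and Spry1 lie 230 kb apart with 1 mRNA locus between them. Fgf3, Fgf4 and Fgf15 form a cluster with gaps of 18.0 and 31.3 kb, and Fgf6 and Fgf23 lie 48.2 kb apart. All 5 of these clustered genes stayed under 1 FPKM.

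Other genes of the pathway were followed in a list of 57, of which 56 had a locus under their name and 51 were expressed. From E10.5 to the adult, 1 of the 51 was higher and 23 were lower, with a median difference of -0.93, beside 14.8% and 27.3% of all expressed mRNA loci and their median of -0.40. From E13.5 to the adult, 3 were higher and 19 lower (37.3% of the list), beside 13.0% and 32.1% of all loci. From E10.5 to E13.5, 2 were higher and 8 lower, beside 5.89% and 4.85%. With median-of-ratios factors the adult counts came to 2 higher and 14 lower (27.5%) against E10.5, where 18.4% of all loci were lower. Against E13.5 they came to 7 higher and 12 lower (23.5%), where 18.9% of all loci were lower.

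Among genes that FGF signalling is known to induce, 8 of 11 had a lower adult value, set against E10.5, and 0 had a higher one, where 27.3% of all loci were lower. With median-of-ratios factors 5 of the 11 were lower, beside 18.4% of all loci. Etv4, an ETS transcription factor, measured 4.91, 5.97 and 0.174 FPKM. Etv5, its close relative, measured 7.40, 5.88 and 2.46 FPKM. Both were lowest in the adult. Dusp6, a phosphatase that inactivates ERK, measured 34.4, 33.0 and 13.4 FPKM, and Dusp4, of the same family, 7.88, 4.35 and 0.702. From E10.5 to the adult the differences came to -2.33 for Etv4, -1.28 for Etv5, -1.30 for Dusp6 and -2.38 for Dusp4. Etv5 (-0.96) and Dusp6 (-0.91) did not reach the limit with median-of-ratios factors.

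Of the 10 expressed heparan sulfate proteoglycans, 1 was above its E10.5 value in the adult by this limit, and 5 were below. Of all expressed mRNA loci, 14.8% were higher and 27.3% lower. With median-of-ratios factors 2 were above and 3 below, beside 20.0% and 18.4% of all loci. Gpc1, a glypican, was the higher one as deposited, at 13.2, 27.8 and 49.2 FPKM. Gpc3, a glypican of embryonic tissues, measured 151, 139 and 3.04 FPKM, and Sdc1, a syndecan, 18.1, 27.3 and 2.93. Among the 10 enzymes that build or trim heparan sulfate, 4 were lower and 0 higher, beside 27.3% and 14.8% of all loci. With median-of-ratios factors 3 of these enzymes were lower, beside 18.4% of all loci. Hs6st2, a sulfotransferase, measured 28.1, 12.6 and 0.281 FPKM, and Sulf2, a sulfatase, 47.4, 43.7 and 11.1.

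Of the 3 expressed co-receptors and binding proteins, Flrt2 (21.7, 27.8 and 2.66 FPKM) and Flrt3 (14.3, 22.2 and 0.961 FPKM), membrane proteins that bind FGF receptors, were lower in the adult. These are 2 of 3 genes against E10.5, beside 27.3% of all loci. With median-of-ratios factors they were also 2 of 3, beside 18.4%. Kl and Klb, the co-receptors of the endocrine FGFs, were at most 0.364 FPKM. In the Ras and ERK cascade, 4 of 17 genes (23.5%) were lower, a share under the 27.3% of all loci, and 0 were higher. The largest differences were those of Nras (47.7, 52.0 and 17.2 FPKM) and the adaptor gene Shc1 (19.3, 27.0 and 6.87 FPKM). With median-of-ratios factors 1 of the 17 was lower, beside 18.4% of all loci, and Shc1 came to -0.99.

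Levels of cell type markers also differed between the libraries. All 6 cardiomyocyte markers were above 1 FPKM in every library, and their levels summed to 3210, 5962 and 7998 FPKM. They did not move together: Nkx2-5 measured 46.8, 61.1 and 9.37 FPKM and Ryr2 measured 73.1, 18.8 and 281. From E13.5 to the adult, Tnnt2 went from 1522 to 3148 FPKM and Actn2 from 252 to 453. Tnnc1 (1870 and 1892) and Myl3 (2238 and 2215) stayed close. The 5 epicardial markers summed to 127, 128 and 16.6 FPKM. The 6 endothelial and endocardial markers summed to 293, 176 and 213 FPKM, but took different courses. Npr3 measured 86.1, 50.4 and 1.82 FPKM and Nfatc1 15.6, 4.44 and 3.93, both lowest in the adult. Pecam1 (46.5, 47.6 and 72.8 FPKM) and Kdr (48.1, 20.3 and 61.9 FPKM) were highest in the adult. Cdh5 and Tek were highest at E10.5. The 6 fibroblast markers summed to 252, 631 and 518 FPKM. The adult fibroblast sum rests on Dcn, which measured 49.5, 75.9 and 351 FPKM. The other 5 fibroblast markers had adult values below those of E13.5. The 3 macrophage markers with a locus summed to 4.58, 25.6 and 78.1 FPKM and the 4 smooth muscle markers to 1311, 1226 and 187. Acta2, which embryonic cardiomyocytes also express, made up most of this sum, whereas Myh11, the most specific of the 4, measured 0.112, 0.893 and 18.1 FPKM. Erythroid markers summed to 6758, 16348 and 24.5 FPKM, and 4 genes of the atrial list, some of which the embryonic ventricle also expresses, to 4644, 4386 and 6.91. Of 5 neural markers 1, Tubb3, reached 1 FPKM, in all libraries, and adipocyte markers summed to at most 0.519 FPKM, with Plin1 listed at 0 throughout. In RNA of whole tissue, fewer cells of a type and less RNA per cell cannot be told apart. The part of these shifts in the levels of Fgf1, Fgfr2 and the other members was not tested.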

How the data were processed

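Total RNA of mouse heart ventricle was sequenced at 3 stages, with 1 library per stage. Per the study's methods and the submitters' processing notes, reads were mapped to mm10 with TopHat (version 2) and Bowtie and assembled with Cufflinks, both with a UCSC annotation and without one. Exact versions and other options are not given in the sources used here. The authors deposited FPKM values of merged loci, 1 column per library, with the exon coordinates of their transcripts. All 172 introns of matched member transcripts were found in RefSeq on GRCm38.p6, so coordinates are GRCm38.

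The members and lists were chosen with earlier results of these data known. A gene's locus was the one with a transcript matching RefSeq. Every member was accounted for, and those that reached 1 FPKM in any library were named with their values. From the pathway list, Etv4, Etv5, Dusp6 and, per role, the 2 largest differences in each direction from E10.5 to the adult were named. Differences used log2(FPKM + 1). With 1 library per stage, no test was made. Depth was estimated from the commonest small product of FPKM and length, about 0.0725, 0.0375 and 0.0725 FPKM kb per fragment, and is approximate. The counting was run on simulated data with planted changes and counting noise only. That checks the code and says nothing on variation between animals or libraries. Alternatives changed the pseudocount, scaling, filter, limit and locus choice. Protein sequences were not analysed here, and 1 item is not reported here. Python 3.11.15, pandas 2.3.3 and scipy 1.17.1 were used.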

Additional observations from a re-analysis of the deposited data

How the results depend on the processing

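No paired analysis was possible because there is 1 library per stage, and for the same reason no replicate could be left out. Of the values recomputed under alternatives for counts, medians and shares, 180 stayed within a set tolerance and 27 did not. The tolerance for medians was wide: the members' median from E13.5 to the adult counted as kept at -0.01 and 0.44. Summing all loci of a gene could change no member, since each has 1 locus. No called difference of a member turned its direction. From E10.5 to E13.5, 3 members were higher with a pseudocount of 0.1, and 0 under median-of-ratios factors, where 4.2% of all loci were higher. When scaled to the summed mRNA level 5 were lower, where 11.0% of all loci were lower. With the limit at 2 FPKM 1 was lower. Shares of all loci were not computed for the changed pseudocount, the 2 FPKM limit or the centring by length. Past 2, the members higher and lower were 0 and 0 from E10.5 to E13.5 and 1 and 1 from E10.5 to the adult, and 1 was higher from E13.5 to the adult. For the pathway list, median-of-ratios factors gave 0 higher genes from E10.5 to E13.5, 7 higher, 12 lower and a median of -0.23 from E13.5 to adult, and 2 higher, 14 lower and a median of -0.55 from E10.5 to adult. The summed mRNA level gave 0 higher with a median of -0.41 from E10.5 to E13.5, beside 5.1% of all loci higher. It gave 5 higher from E13.5 to the adult and 2 from E10.5 to the adult, beside 19.25% and 17.1% of all loci. A pseudocount of 0.1 also gave 2 higher from E10.5 to the adult. Centred by transcript length, an alternative chosen after seeing the data, the list had 1 higher gene from E10.5 to E13.5, 6 higher with a median of 0.066 from E13.5 to the adult, and 2 higher, 12 lower and a median of -0.52 from E10.5 to adult. The median of all expressed mRNA loci, E10.5 against adult, was -0.40 as deposited, -0.06 under median-of-ratios factors and -0.43 under the summed mRNA level, and the share of lower loci went from 27.3% to 18.4% and 30.9%, that of higher loci from 14.8% to 20.0% and 17.1%. From E13.5 to the adult, 20.8% were higher and 18.9% lower under median-of-ratios factors. The summed mRNA factors were 0.333, 0.414 and 0.329, so dividing by them also reduced the weight of the pseudocount. That setting therefore does not separate scaling from pseudocount. The cause was not tested for any of these shifts. Values under 1 FPKM rest on few fragments, and the joined Fgf13 and Spred1 loci limit what their levels mean.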
